A study of Mus musculus with 60 samples.

Results

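Mouse 1-cell embryos made by nuclear transfer of embryonic fibroblasts (NTM) were compared with 1-cell embryos recovered after mating (in vivo). The comparison was defined by its samples, with 3 NTM libraries against 3 in vivo libraries, 6 of the 60 libraries of the series. Of the 27238 genes in the table, the 10307 with a mean RPKM of at least 0.5 over these 6 libraries were tested. The series followed in vivo, NTM and cumulus cell nuclear transfer (NTC) embryos through 6 stages and added the donor cells. Each embryo library came from a single embryo, so a p-value measures the spread between single embryos.

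In vivo embryos came from C57BL/6 females mated with DBA2 males, and their strain was labelled BDF1. The paper does not state whether these C57BL/6 females were superovulated. NTM embryos were built from metaphase II oocytes of superovulated BDF1 females. The oocyte spindle was removed and the nucleus of a serum-starved BDF1 mouse embryonic fibroblast (MEF) was injected. The embryos were then activated with strontium chloride and held with cytochalasin B and Scriptaid, a histone deacetylase inhibitor, before culture. The egg donor, fertilization against transfer, the drugs, the culture and the donor nucleus all changed together between the groups, so their parts in any difference cannot be told apart. Neither group served as a control for the drugs alone.

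The 1-cell embryo runs on RNA that the growing oocyte stored, much of it held with short poly(A) tails. Egg activation sets off translation of some of these messages and destruction of others, while the embryo's own genome starts with a low, minor activation. In nuclear transfer a somatic nucleus enters this cytoplasm, loses most of its own transcription and is remodelled by oocyte proteins. RNA in an NT 1-cell embryo can therefore come from the egg, from the injected nucleus with its remaining cytoplasm, or from new transcription.

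The coding starts of the 3 most reduced genes and of Mtfr2 and Manba, which were among the 3 most raised in NTM embryos (of genes with an established name), are shown because base composition differed between the reduced and the raised genes as a whole. The capitals mark G and C. The sequences are the 90 coding bases from the start codon of the GENCODE M21 transcripts (genome build GRCm38), 5′ to 3′ on the strand of the gene. The stretch of Ube2s lies at chr7:4811470-4812165 (minus strand) and spans an intron, and that of Mtfr2 lies at chr10:20347911-20348411 (plus strand) and also spans an intron. The others lie within 1 exon, at chr17:26934210-26934299 (plus strand) for Phf1, chr8:84044867-84044956 (minus strand) for Rln3 and chr3:135485681-135485770 (plus strand) for Manba.
Ube2s: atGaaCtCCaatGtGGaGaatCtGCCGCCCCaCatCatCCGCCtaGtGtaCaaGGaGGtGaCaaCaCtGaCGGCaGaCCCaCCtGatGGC
Phf1: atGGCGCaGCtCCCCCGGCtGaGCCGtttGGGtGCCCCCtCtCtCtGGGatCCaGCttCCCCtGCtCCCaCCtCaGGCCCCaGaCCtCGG
Rln3: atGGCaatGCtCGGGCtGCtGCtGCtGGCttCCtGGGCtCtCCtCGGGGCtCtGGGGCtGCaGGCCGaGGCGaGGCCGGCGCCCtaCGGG
Mtfr2: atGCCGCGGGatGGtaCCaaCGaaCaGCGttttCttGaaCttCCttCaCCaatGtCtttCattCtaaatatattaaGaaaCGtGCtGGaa
Manba: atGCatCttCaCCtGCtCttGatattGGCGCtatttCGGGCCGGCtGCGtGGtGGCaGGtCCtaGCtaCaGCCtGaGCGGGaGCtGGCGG
G and C made up 55.6% of the stretch shown for Ube2s, 70.0% for Phf1 and 73.3% for Rln3, the 3 reduced genes. They made up 41.1% for Mtfr2 and 61.1% for Manba, which were raised. Over the whole coding sequence the share was 56.5%, 59.8% and 63.8% for the reduced genes and 45.2% and 49.8% for these raised genes. The division is not strict, since the longest transcript of Pnpla3, the most raised gene, had a GC content of 58.4%, close to the 58.6% of Phf1, and that of Ube2s, the most reduced gene, had a lower one.

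Reads on genes ranged from 10445978 to 18145996 in vivo and from 14158392 to 16507413 in NTM libraries, and 9491 to 12593 genes were above 0. A value of 0 allows up to 3 reads by counting alone, equal to 0.0827 to 0.144 RPKM for a transcript of 2000 nt. The reads carried no molecular identifiers, so this limit covers counting error only. One in vivo library, replicate 1, stood apart. Over the genes tested its log2 values correlated with those of the other in vivo libraries at r = 0.749 and 0.750, against 0.915 between those libraries and 0.900 to 0.912 among NTM libraries. It had the fewest reads and genes, and 11.4% of its reads were on mitochondrial genes, against 3.99% and 5.29% in the other in vivo libraries and 2.46% to 3.60% in NTM libraries. The counts of called genes and of called list members are given with and without it, apart from those of NTC embryos. At the 2-cell stage, which is used further on, in vivo replicate 3 also stood apart.

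**Figure D1:**
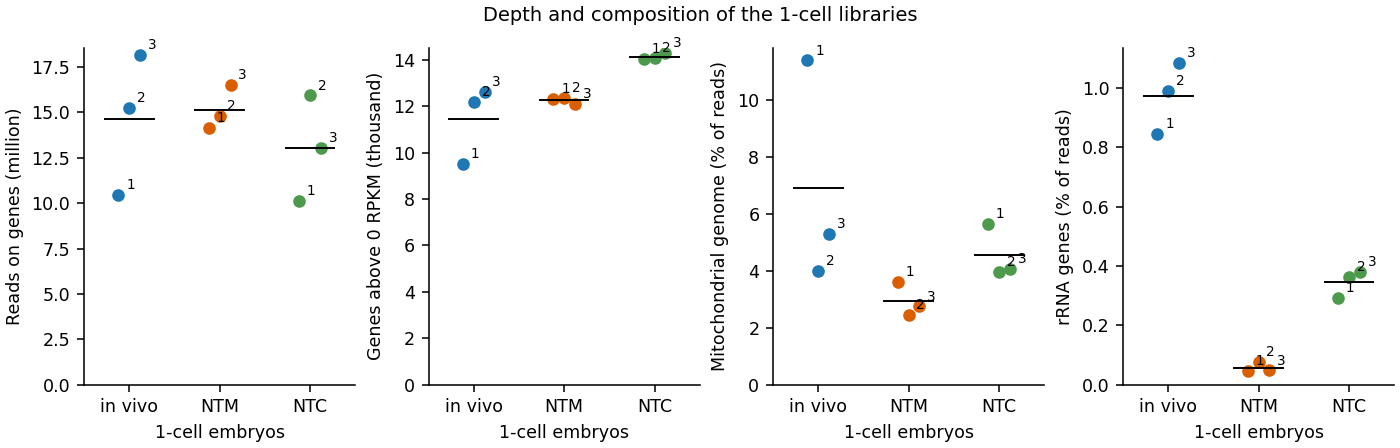
The panels give, for each 1-cell library of in vivo, NTM and NTC embryos (points numbered by replicate, lines at the group means), the reads on genes, the genes above 0, and the percent of reads on mitochondrial genes and on ribosomal RNA genes. In vivo replicate 1 had the fewest genes and the highest mitochondrial share of these libraries, and the ribosomal RNA share was 0.846% to 1.08% in vivo and 0.0471% to 0.0781% in NTM embryos.

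Both groups carried the RNA of an egg and little RNA of a fibroblast. The 24 oocyte markers summed to 5463, 8437 and 7349 RPKM in vivo and to 7142, 6395 and 6683 RPKM in NTM embryos. Of the 32 fibroblast markers, 17 were at 0 in all 6 libraries. Their sum was 5.63, 7.82 and 11.5 RPKM in vivo and 3.46, 7.08 and 8.22 RPKM in NTM embryos, against 16815 to 21061 RPKM in the MEFs. Decorin (Dcn), a matrix proteoglycan at a mean of 3232 RPKM in MEFs, was at 0, 2.71 and 4.79 RPKM in vivo and at 0, 0.0325 and 0.0291 RPKM in NTM embryos (adjusted p = 0.358, and 0.0298 with a log2 fold change of -2.18 without in vivo replicate 1). The 24 cumulus markers summed to 3.45 to 14.5 RPKM in vivo and 15.0 to 15.3 RPKM in NTM embryos. The 13 sperm transcripts in the table summed to 0, 4.33 and 5.94 RPKM in vivo and to 3.82, 13.6 and 8.78 RPKM in NTM embryos, so they were not higher in the fertilized group.

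The 2 kinds of 1-cell embryo differed in 132 genes, 1.28% of those tested, by limma with Benjamini-Hochberg adjustment (a gene was called at an adjusted p under 0.05 where its log2(RPKM + 1) also differed by 1 or more). In NTM embryos 94 of these were lower (0.912%) and 38 were higher (0.369%). The lower genes were abundant in vivo, with a median of the mean RPKM of 42.8 against 2.14 in NTM embryos. The higher genes were nearly absent in vivo, with a median of 0.165 against 18.7 in NTM embryos. The median log2 fold change was -3.16 for the lower and 3.26 for the higher genes, against 0.18 over all genes tested. An unadjusted p under 0.05 was reached by 1525 genes (14.8%).

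All 132 genes had groups that did not overlap, as did 23.1% of all genes tested. For 24 of the 38 higher genes all in vivo values lay under 1 RPKM, and 3 of these were listed at 0 in all 3 in vivo libraries. For 24 of the 94 lower genes all NTM values lay under 1 RPKM, and 3 of these were at 0 in all 3 NTM libraries. Without in vivo replicate 1 the count rose to 853 genes, 8.23% of 10360 tested, with 280 higher (2.70%) and 573 lower (5.53%), and these included all 132. The authors added an ERCC spike-in mix to each sample, but it was not used here, and the amount of RNA per embryo was not estimated. RPKM gives the share of a gene among the RNA that was sequenced, so a loss of one RNA and a gain of the others cannot be told apart.

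**Figure D2:**
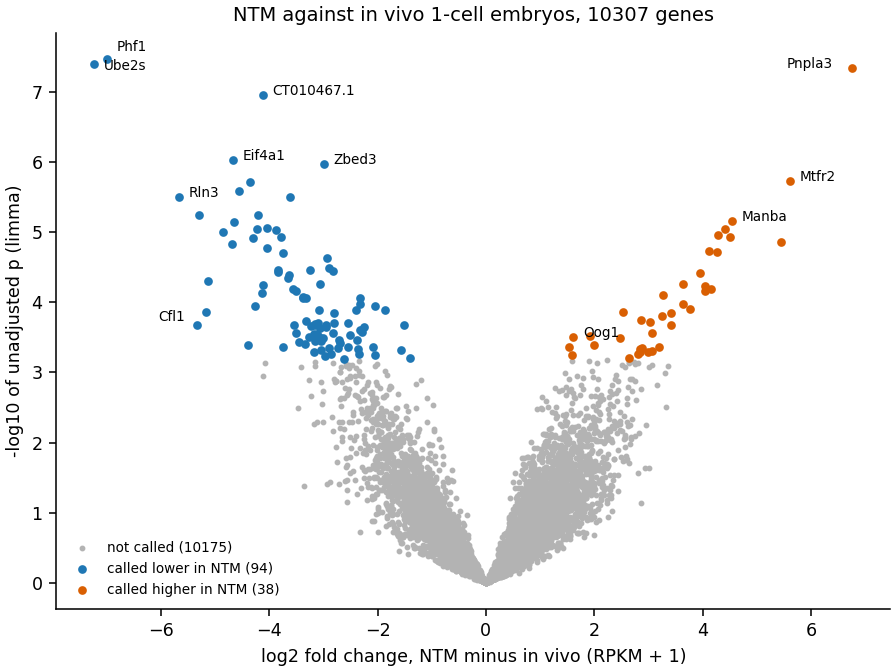
Each point is 1 of the 10307 genes tested, with the log2 fold change of NTM against in vivo 1-cell embryos on the x axis and the negative log10 of the unadjusted p (limma) on the y axis. The 94 called lower genes lie on the left and the 38 called higher genes on the right, with log2 fold changes of 1.40 to 7.23 and of 1.53 to 6.76 in size.

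Among the reduced genes, Ube2s and Phf1 fell furthest. Ube2s (chr7:4794546-4812590), the E2 enzyme that extends ubiquitin chains for the anaphase-promoting complex, was at 462, 288 and 200.4 RPKM in vivo (317 ± 133, SD, n = 3) and at 0.989, 1.03 and 0.978 RPKM in NTM embryos (0.998 ± 0.0254, n = 3). Its log2 fold change was -7.23 ± 0.42 (SE, adjusted p = 0.000154), and the ratio of the means was 318. Phf1 (chr17:26933052-26937908), a Polycomb-like partner of the H3K27 methyltransferase complex, was at 222, 327 and 337 RPKM in vivo and 1.80, 0.696 and 1.52 RPKM in NTM embryos (log2 fold change -6.99 ± 0.40, adjusted p = 0.000154). For both genes every in vivo embryo held a high level and every NTM embryo a level near 1 RPKM. Rln3 (chr8:84042929-84045000), which encodes the peptide relaxin-3, was at 30.7, 62.8 and 103 RPKM in vivo and at 0.223, 0.213 and 0.0956 RPKM in NTM embryos (log2 fold change -5.66 ± 0.55, adjusted p = 0.00292).

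The next genes in size had roles in actin, chromatin and signalling. Cfl1 (chr19:5490455-5495201), the actin-severing protein cofilin, was at 38.5, 460.3 and 511 RPKM in vivo and 4.37, 5.66 and 3.01 RPKM in NTM embryos (log2 fold change -5.33 ± 0.89, adjusted p = 0.0273). In vivo replicate 1 was the low one of its group, and without it the log2 fold change was -6.54. Hmga1 (chr17:27556497-27563674), an AT-hook chromatin protein with a near-identical copy that may share its reads, was at 26.5, 80.9 and 78.2 RPKM in vivo and 0.284, 0.442 and 0.578 RPKM in NTM embryos (log2 fold change -5.30 ± 0.55, adjusted p = 0.00454). Selenow (chr7:15917208-15922402), selenoprotein W, was at 276, 35.6 and 45.2 RPKM in vivo and 0.672, 3.31 and 0.412 RPKM in NTM embryos (log2 fold change -5.16 ± 0.81, adjusted p = 0.0221). Here in vivo replicate 1 was the high one, and without it the log2 fold change was -4.25.

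Nat14 (chr7:4922028-4925006), a putative N-acetyltransferase, was at 12.5, 85.9 and 44.8 RPKM in vivo and at most 0.126 RPKM in NTM embryos (log2 fold change -5.12 ± 0.70, adjusted p = 0.0126). Serpinb1c (chr13:32881434-32898211), of the serine protease inhibitor family, was at 212, 55.8 and 91.4 RPKM in vivo and 1.77, 3.55 and 2.73 RPKM in NTM embryos (log2 fold change -4.85 ± 0.54, adjusted p = 0.00502). Gnai2 (chr9:107614125-107635367), an inhibitory G protein subunit, was at 23.5, 61.9 and 45.4 RPKM in vivo and 0.392, 0.251 and 1.43 RPKM in NTM embryos (log2 fold change -4.68 ± 0.55, adjusted p = 0.00587). For each of these genes the lowest in vivo embryo was above the highest NTM embryo by more than the whole range of the NTM embryos. Eif4a1 (chr11:69666936-69672423), the RNA helicase of the cap-binding complex, was at 410.1, 239 and 183 RPKM in vivo and 11.4, 8.24 and 8.44 RPKM in NTM embryos (log2 fold change -4.68 ± 0.39, adjusted p = 0.00184). Its processed copies may share reads with it.

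Among the raised genes, Pnpla3 and Mtfr2 stood highest. Pnpla3 (chr15:84167837-84187236), a lipase-like protein of lipid droplets, was at 0.536, 0.397 and 0.238 RPKM in vivo (0.390 ± 0.150, SD, n = 3) and at 132, 170.0 and 149 RPKM in NTM embryos (150.3 ± 18.9, n = 3). Its log2 fold change was 6.76 ± 0.40 (adjusted p = 0.000154), and the ratio of the means was 385. Its mean in MEFs was 0.111 RPKM, below the level in vivo. Mtfr2 (chr10:20347770-20361304), a mitochondrial fission regulator, was at 3.36, 13.3 and 15.3 RPKM in vivo and 585, 387 and 518 RPKM in NTM embryos (log2 fold change 5.61 ± 0.51, adjusted p = 0.00248). Manba (chr3:135485611-135571404), the lysosomal enzyme beta-mannosidase, was at 0.0961, 0.0754 and 0.0474 RPKM in vivo and 27.2, 19.8 and 25.4 RPKM in NTM embryos (log2 fold change 4.54 ± 0.49, adjusted p = 0.00494). The in vivo values of Manba were near the level of a few reads.

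Bfsp1 (chr2:143826528-143863173), the lens filament protein filensin, was at 0.240, 0.0275 and 0.0461 RPKM in vivo and 13.7, 25.9 and 22.6 RPKM in NTM embryos (log2 fold change 4.26 ± 0.52, adjusted p = 0.00675). Ripply3 (chr16:94328420-94336935), a corepressor of T-box factors, was at 0 in all 3 in vivo libraries and at 13.1, 34.1 and 10.5 RPKM in NTM embryos (log2 fold change 4.16 ± 0.59, adjusted p = 0.0145), at least 136-fold higher against a limit of 3 reads per in vivo library. Gsto2 (chr19:47865534-47886324), an omega class glutathione transferase, was at 0, 0.0424 and 0 RPKM in vivo and 15.8, 19.9 and 14.3 RPKM in NTM embryos (log2 fold change 4.11 ± 0.50, adjusted p = 0.00675). These genes went from at or near 0 to more than 10 RPKM in every NTM embryo. Zfp990 (chr4:145510759-145539188), a zinc finger gene, was at 0.0274, 0 and 0 RPKM in vivo and 17.97, 8.07 and 25.9 RPKM in NTM embryos (log2 fold change 4.05 ± 0.58, adjusted p = 0.0149).

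Hmgn3 (chr9:83109948-83146685), a nucleosome-binding protein, was at 0.102, 0.914 and 0.0590 RPKM in vivo and 21.96, 15.1 and 21.9 RPKM in NTM embryos (log2 fold change 3.96 ± 0.52, adjusted p = 0.0105). Gpat3 (chr5:100845713-100899102), an acyltransferase at the start of triglyceride synthesis, was at 0.109, 0.0563 and 0.0472 RPKM in vivo and 7.12, 14.2 and 18.1 RPKM in NTM embryos (log2 fold change 3.64 ± 0.55, adjusted p = 0.0195). Mamdc2 (chr19:23302609-23448442), a secreted matrix protein, was at 0.0287, 0.0197 and 0.858 RPKM in vivo and 11.5, 15.5 and 10.3 RPKM in NTM embryos (log2 fold change 3.41 ± 0.54, adjusted p = 0.0221). Every one of these 20 leading genes was also called without in vivo replicate 1, with an adjusted p of at most 0.00726. That fit kept all 132 calls, while leaving out any other single library gave 16 to 34 calls. Of the 20, only Ube2s, Phf1, Rln3, Hmga1, Eif4a1, Mtfr2 and Pnpla3 were called whichever library was left out. The mean in MEFs was at least 1 RPKM for 24 of the 38 higher genes (63.2%), 69 of the 94 lower genes (73.4%) and 64.5% of all genes tested. It was at least 10 RPKM for 15 higher genes (39.5%), 44 lower genes (46.8%) and 29.7% of all genes tested. Whether RNA of the donor cell added to these levels was not tested.

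**Figure D3:**
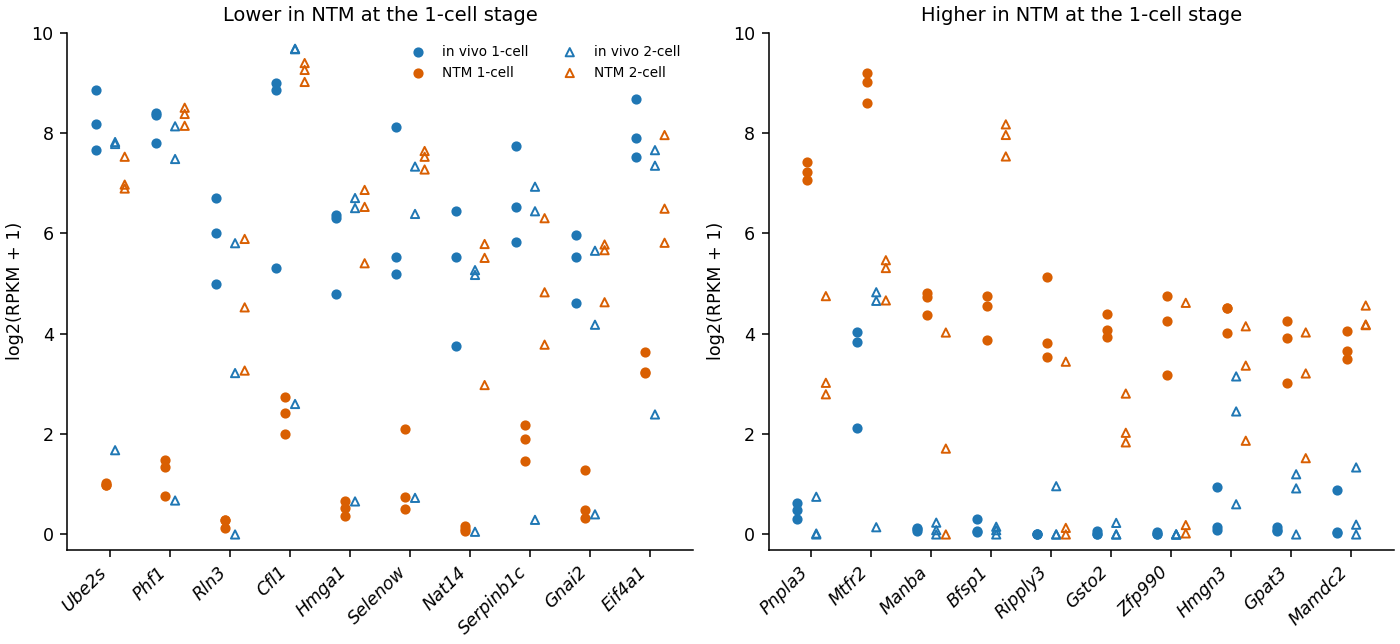
The log2(RPKM + 1) of the 10 reduced and the 10 raised leading genes in each in vivo and NTM library, with filled circles for 1-cell and open triangles for 2-cell embryos. At the 1-cell stage the in vivo and NTM points of each gene lie apart, and at the 2-cell stage 1 in vivo library, replicate 3, lies low for the reduced genes.

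Several abundant RNAs of the egg changed. Zbed3 (chr13:95323612-95337841), a partner of the subcortical maternal complex of the egg cortex, was at 5339, 3345 and 3239 RPKM in vivo and 464, 539.8 and 459 RPKM in NTM embryos (log2 fold change -2.99 ± 0.26, adjusted p = 0.00184). H1foo (chr6:115944938-115950236), the linker histone of the oocyte, was at 652, 1481 and 1045 RPKM in vivo and 179.7, 77.6 and 212 RPKM in NTM embryos (log2 fold change -2.80 ± 0.44, adjusted p = 0.0221). Klf17 (chr4:117757836-117765648), a zinc finger transcription factor of the egg and early embryo, was at 512, 599.8 and 682 RPKM in vivo and 140.2, 222 and 137 RPKM in NTM embryos (log2 fold change -1.86 ± 0.29, adjusted p = 0.0215). In each case the lowest in vivo embryo was more than 2 times the highest NTM embryo.

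A pair of other egg genes moved the opposite way. Oog1 (chr12:87602688-87608850), the oocyte protein oogenesin, was at 761, 393 and 506 RPKM in vivo and 1834, 1487 and 1587 RPKM in NTM embryos (log2 fold change 1.61 ± 0.28, adjusted p = 0.0336). Nlrp4f (chr13:65177111-65205977), an NLRP protein of the oocyte, was at 218, 319 and 387 RPKM in vivo and 767, 958 and 879 RPKM in NTM embryos (log2 fold change 1.53 ± 0.28, adjusted p = 0.0399). So the egg genes did not all take a lower share of the RNA sequenced in NTM embryos. Among 22 oocyte markers tested, 2 were lower, H1foo and the RNA-binding protein Ybx2 (20.2, 17.6 and 35.6 RPKM in vivo, 1.84, 1.94 and 1.83 RPKM in NTM embryos, adjusted p = 0.0215), none was higher, and the median log2 fold change was -0.26 against 0.18 over all genes. Leaving out in vivo replicate 1 gave 6 lower and 2 higher, with a median of -0.95. Over all genes 5.53% were lower and 2.70% higher in that fit, with a median of 0.02. Of the 8 genes of the subcortical maternal complex list, Zbed3 was lower and Nlrp4f higher, with a median of 0.87, and 1 was lower and 2 higher without in vivo replicate 1.

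A ribosomal RNA gene and 1 mitochondrial gene were lower in NTM embryos. CT010467.1 (chr17:39846353-39848827), a ribosomal RNA gene that exists in many copies, was at 4048, 4731 and 5204 RPKM in vivo and 221, 375 and 228 RPKM in NTM embryos (log2 fold change -4.12 ± 0.27, adjusted p = 0.000285). The share of reads on ribosomal RNA genes was 0.973% ± 0.1196 in vivo and 0.0577% ± 0.0176 in NTM embryos (SD, n = 3, exact two-sided permutation test p = 0.1, the smallest that 3 against 3 allows). mt-Cytb, the mitochondrial cytochrome b gene, was at 18341, 10296 and 11315 RPKM in vivo and 6411, 4312 and 4189 RPKM in NTM embryos (log2 fold change -1.40 ± 0.27, adjusted p = 0.0491). It was the 1 called gene of 12 mitochondrial genes tested (2 without in vivo replicate 1), whose median log2 fold change was -0.72 with none above 0. The median was -0.71 without in vivo replicate 1, with 3 of 12 above 0, and 5.53% of all genes were lower in that fit. The mitochondrial share of reads was 6.88% ± 3.94 in vivo and 2.94% ± 0.596 in NTM embryos (exact permutation p = 0.1), and 4.64% in vivo without replicate 1.

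Of 47 translation initiation genes tested, Eif5a and Eif4a1 were lower and Eif1ad and Eif3j2 were higher, with a median log2 fold change of 0.25 against 0.18 over all genes. No other passed, and 3 were higher and 5 lower without in vivo replicate 1. In that fit 2.70% of all genes were higher and 5.53% lower. Eif5a, which helps the ribosome through difficult peptide bonds, was at 101, 66.4 and 85.7 RPKM in vivo and 12.5, 7.71 and 11.1 RPKM in NTM embryos (adjusted p = 0.0103). Eif1ad, a protein with an eIF1A-like domain, was at 0.0388, 1.012 and 0.870 RPKM in vivo and 10.96, 14.03 and 12.05 RPKM in NTM embryos (adjusted p = 0.0314). Eif3j2, a copy of the eIF3 subunit gene Eif3j1 with which it may share reads, was at 0.0805, 0.138 and 0.0695 RPKM in vivo and 6.47, 3.98 and 7.51 RPKM in NTM embryos (adjusted p = 0.0491). Eif1ad and Eif3j2 were among the genes that the study named, and were listed for that reason. Of the others it named, Eif1ax was at 17.5 ± 2.29 RPKM in vivo and 39.2 ± 17.7 RPKM in NTM embryos (SD, n = 3, adjusted p = 0.30), and Rasl11a and Duxf3 were at most 0.225 RPKM in these 6 libraries. Of the 57 ribosomal protein genes tested, Rps2 was lower (319, 156 and 140.2 RPKM in vivo, 35.7, 23.96 and 57.8 RPKM in NTM embryos, adjusted p = 0.0451) and the median was 0.38. When in vivo replicate 1 was left out, 5 were higher and 1 was lower.

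Actin regulators were among the reduced genes. Of 43 tested, 3 were lower (0.912% of all genes were) and none higher, with a median log2 fold change of -0.21, which was -0.04 with no filter on low values or a pseudocount of 0.1 and -0.42 with median-ratio scaling. These were Cfl1, the actin monomer carrier Pfn1 (9.35, 14.3 and 14.1 RPKM in vivo, 0.206, 1.013 and 0.403 RPKM in NTM embryos, adjusted p = 0.0273) and the Arp2/3 complex subunit Arpc2 (409, 364 and 353 RPKM in vivo, 129, 138 and 127 RPKM in NTM embryos, adjusted p = 0.0273). Arpc2 varied little within either group. With the other 5 libraries alone (no in vivo replicate 1), 9 of 45 were lower (5.53% of all genes were) and 1 higher. NT embryos, both NTM and NTC, had been held with cytochalasin B, which blocks actin assembly, and in vivo embryos had not. An effect of this drug on the RNA of these genes was not tested. In NTC embryos Cfl1 was at 657, 569 and 740.1 RPKM, Pfn1 at 9.53, 8.27 and 6.41 RPKM and Arpc2 at 301.5, 227 and 251 RPKM, all above the NTM embryos.

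Few chromatin genes were called, as was so for all genes tested, of which 1.28% were called. Phf1 was the 1 gene called of 26 Polycomb genes (median 0.11), and Naa40, which acetylates the N termini of histones, was the 1 called of 20 acetyltransferase genes (111, 138 and 123 RPKM in vivo, 33.0, 19.8 and 20.6 RPKM in NTM embryos, adjusted p = 0.0165). H1foo was the 1 called of 22 histone variant and chaperone genes. None of the 19 histone deacetylase genes was called, with a median of -0.35, and their 2 most abundant members were Hdac2 (52.0 ± 6.62 RPKM in vivo, 72.9 ± 25.5 in NTM embryos, SD, n = 3) and Sin3a (49.9 ± 6.09 and 32.9 ± 6.62). Without in vivo replicate 1, 2 were lower. Scriptaid acts on these enzymes, and NTM and NTC embryos had received it. An effect of Scriptaid on their RNA was not tested. In NTC embryos Hdac2 was at 15.9 ± 5.97 RPKM and Sin3a at 48.6 ± 5.82 RPKM (SD, n = 3). None was called of 15 genes of H3K9 methylation (median 0.50), 17 of H3K4 methylation (median -0.10) and 16 of DNA methylation (median 0.24). With in vivo replicate 1 left out, 4 Polycomb and 4 acetyltransferase genes were lower, 1 histone variant or chaperone gene was higher and 1 lower, 1 gene of H3K4 methylation was higher, and none of H3K9 or DNA methylation was called. Over all genes 5.53% were lower and 2.70% higher in that fit.

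Pou5f1, the pluripotency factor Oct4, was at 22.5, 6.05 and 15.8 RPKM in vivo and 0.785, 0.451 and 0.458 RPKM in NTM embryos (log2 fold change -3.17 ± 0.60, adjusted p = 0.0433). It was the 1 called of 9 pluripotency genes tested, with a median of -0.78, and Nanog was at 0 in all 6 libraries. Sdhc, a subunit of respiratory complex II, was the 1 called of 52 nuclear respiratory chain genes (14.02, 9.14 and 10.4 RPKM in vivo, 1.02, 1.39 and 0.541 RPKM in NTM embryos, adjusted p = 0.0497). Psme3, a proteasome activator, was the 1 called of 36 proteasome genes (159.6, 98.1 and 134 RPKM in vivo, 25.4, 30.7 and 19.6 RPKM in NTM embryos, adjusted p = 0.0195). The anti-apoptotic gene Bcl2l1 was the 1 called of 23 genes of p53 and apoptosis (22.9, 35.1 and 32.5 RPKM in vivo, 2.70, 6.91 and 3.95 RPKM in NTM embryos, adjusted p = 0.0399). All 4 were lower in NTM embryos. Of 16 genes of early genome activation tested, Klf17 was the 1 called (median 0.14). With in vivo replicate 1 left out, 3 pluripotency genes were lower, 4 respiratory chain genes were higher and 1 lower, 1 proteasome gene was higher and 2 lower, 2 genes of p53 and apoptosis were lower, and 1 gene of early genome activation was lower. Over all genes 5.53% were lower and 2.70% higher in that fit.

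Many processes gave no call with all 6 libraries, where 1.28% of all genes tested were called. At that share a short list without a call is no finding. None was called of 64 cell cycle genes (median log2 fold change 0.42), 47 DNA repair genes (0.20), 43 spliceosome genes (0.54), 60 mitochondrial ribosome genes (0.17), 24 genes of maternal mRNA decay (0.13), 19 heat shock genes (0.79), 19 egg activation genes (0.24), 22 glycolysis genes (0.20), 11 immediate early genes (-0.20) and 10 replication-dependent histone genes (0.79). Ccnb1, cyclin B1, was at 588 ± 89.2 RPKM in vivo and 932 ± 45.9 RPKM in NTM embryos (SD, n = 3, adjusted p = 0.231). Btg4, an adaptor of maternal mRNA deadenylation, was at 18079.9, 4209 and 3536 RPKM in vivo and 5877, 3875 and 5032 RPKM in NTM embryos (adjusted p = 0.731), with in vivo replicate 1 far above the others. A missed call does not show that these genes were equal. Calls appeared in most of these lists without in vivo replicate 1, where 8.23% of all genes were called. These were 3 cell cycle genes higher and 6 lower, 5 mitochondrial ribosome genes higher and 1 lower, 1 maternal decay gene higher and 5 lower, 1 DNA repair gene higher and 3 lower, and 1 heat shock gene higher and 2 lower. Among spliceosome genes 3 were lower, among egg activation genes 3 and among immediate early genes 1, with none higher, and no glycolysis or replication-dependent histone gene was called.

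Imprinted genes gave no call with all 6 libraries, where 1.28% of all genes tested were called, so this is no finding about them. Of the 9 genes imprinted through maternal H3K27me3, 3 were tested and none was called. Bmp7 was at 0, 0 and 0.0137 RPKM in vivo and 3.78, 2.36 and 0.889 RPKM in NTM embryos (adjusted p = 0.196), and Gab1 was at 0.0394, 0 and 0 RPKM in vivo and 1.89, 0.627 and 3.48 RPKM in NTM embryos (adjusted p = 0.254). For both genes the groups did not overlap, as for 23.1% of all genes tested, and the other gene tested lay below 0. None of 17 genes with classical imprints was called (median -0.34), and 3 were lower without in vivo replicate 1 (5.53% of all genes were). Among these was Ube3a, a ubiquitin ligase, at 1.48, 19.6 and 26.1 RPKM in vivo and 3.77, 5.85 and 4.602 RPKM in NTM embryos (log2 fold change -2.06, adjusted p = 0.0162 by limma without that library). Xist was at 0 in all 6 libraries, as were the Y-linked genes Ddx3y, Eif2s3y, Uty, Zfy1, Zfy2 and Usp9y, and Kdm5d was at most 0.0625 RPKM. Of 8 genes with known differences between C57BL/6 and DBA2 mice, 6 were tested and none was called, and Btbd9 was lower without in vivo replicate 1 (log2 fold change -2.29, adjusted p = 0.0187). Nnt, the mitochondrial transhydrogenase that carries a deletion in C57BL/6J mice, was at 0.0136, 0.0560 and 0 RPKM in vivo and 1.57, 1.07 and 1.07 RPKM in NTM embryos (log2 fold change 1.12 ± 0.42, adjusted p = 0.276). In NTC embryos, also built from BDF1 eggs, Nnt was at 0.0140, 0 and 0.0109 RPKM. It was at 0 in all 3 NTM 2-cell libraries and at a mean of 4.40 RPKM in MEFs. The source of the Nnt RNA was not tested.

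Other reduced genes, named here after their values were seen, included further egg and transcription genes. Sebox, an oocyte homeobox gene, was at 497, 169.6 and 191 RPKM in vivo and 15.7, 36.6 and 24.8 RPKM in NTM embryos (adjusted p = 0.0165). Taf3, a subunit of the general factor TFIID, was at 131, 189.9 and 268 RPKM in vivo and 19.9, 30.3 and 27.9 RPKM in NTM embryos (adjusted p = 0.0103). Max, the partner of Myc, was at 113, 67.95 and 82.6 RPKM in vivo and 9.65, 14.2 and 5.98 RPKM in NTM embryos (adjusted p = 0.0133). In all 3 the lowest in vivo embryo was more than 4 times the highest NTM embryo. Other raised genes were Ugcg, which makes glucosylceramide (8.69, 27.2 and 24.6 RPKM in vivo, 256, 140.2 and 173 RPKM in NTM embryos, adjusted p = 0.0161), and Fdx1, the mitochondrial electron carrier ferredoxin (79.3, 50.7 and 57.5 RPKM in vivo, 185, 171 and 204 RPKM in NTM embryos, adjusted p = 0.0459).

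The reduced genes were richer in G and C than the genes tested as a whole. The median GC content of the longest transcript was 53.9% for the 94 lower genes, 47.2% for the 38 higher genes and 48.0% for all genes tested. Of the lower genes, 27 of 94 (28.7%) lay in the richest of 10 equal classes of genes by GC content, which began at 56.3%, as did 4 of 38 higher genes (10.5%) and 9.95% of all genes tested. Across the classes the median log2 fold change was 0.11 in class 1, 0.33 in class 5 and -0.22 in class 10. The 2 richest classes held 22 and 27 lower genes, and each of the other 8 classes held 1 to 8. Genes of the top class took 2.26%, 3.22% and 3.55% of reads in vivo and 2.11%, 2.15% and 2.15% in NTM embryos, so the NTM embryos lay close together and in vivo replicate 1 was nearest to them. Without in vivo replicate 1 the median of class 10 was -0.42, and it held 153 of the 573 lower genes. The longest transcript of the lower genes had a median length of 2207 nt, that of the higher genes 1808 nt and that of all genes 3137 nt. After adjustment of each library for GC content 173 genes were called, and 121 of the 132 remained among them.

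**Figure D4:**
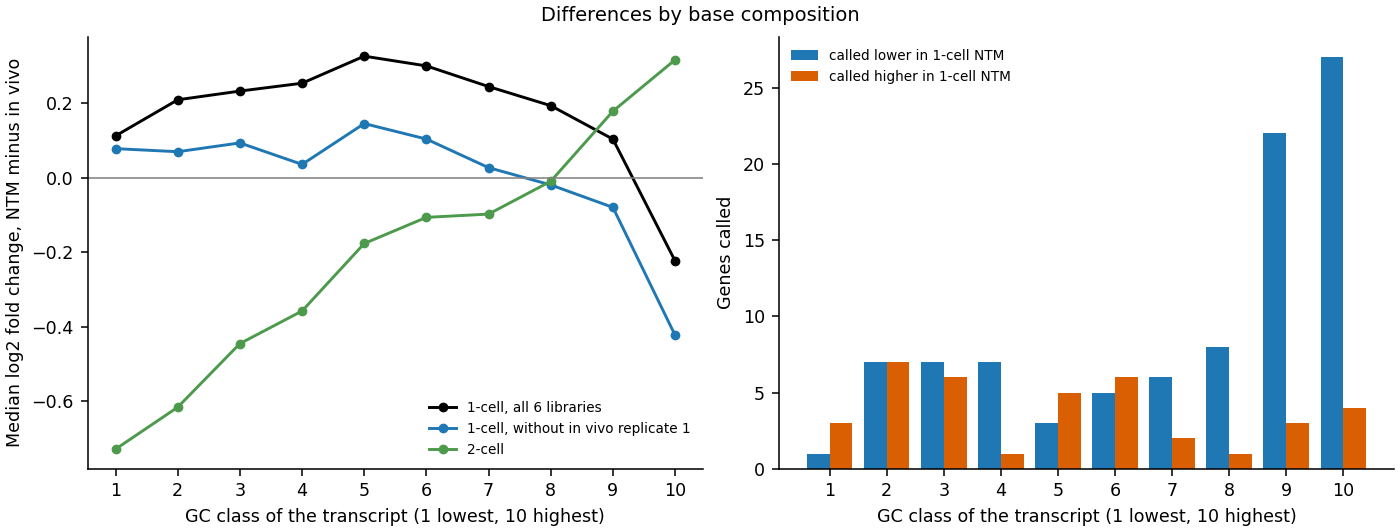
Left, the median log2 fold change of NTM against in vivo embryos in 10 classes of genes by the GC content of the longest transcript, at the 1-cell stage with and without in vivo replicate 1 and at the 2-cell stage. Right, the number of genes called higher and lower at the 1-cell stage in each class. The 1-cell medians fall to -0.22 (-0.42 without in vivo replicate 1) in the richest class, where 27 genes were called lower, while the 2-cell medians rise from -0.73 to 0.32.

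NTC embryos, made with cumulus cell nuclei by the same steps, give the values of another NT group beside these, and were compared with the same in vivo libraries. Of 10834 genes tested between NTC and in vivo 1-cell embryos, 126 (1.16%) were called. NTC and NTM 1-cell embryos differed in 2142 of 10799 genes (19.8%). The 94 lower genes had a median of the mean RPKM of 31.7 in NTC embryos, against 42.8 in vivo and 2.14 in NTM embryos. The 38 higher genes had a median of 14.3 in NTC embryos, against 18.7 in NTM embryos and 0.165 in vivo. The in vivo and NTM values chose the genes, so distance from them is no finding. The same medians over all genes tested were 4.57 in vivo, 4.54 in NTM and 5.62 in NTC embryos.

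The mean in NTC embryos reached the range of the in vivo values or more for 47 of the 94 lower genes and was not above the highest NTM value for 6. It reached the range of the NTM values or more for 13 of the 38 higher genes and was not above the highest in vivo value for 2. Ube2s was at 62.9, 43.5 and 65.9 RPKM in NTC embryos, between in vivo and NTM embryos. Phf1 was at 158, 127 and 137 RPKM and Cfl1 at 657, 569 and 740.1 RPKM in NTC embryos, far above the NTM embryos. Pnpla3 was at 211, 219 and 243 RPKM and Mtfr2 at 306, 432 and 332 RPKM in NTC embryos, near the NTM levels. H1foo, at 94.5, 130.1 and 71.8 RPKM in NTC embryos, was among the 6 reduced genes as low in NTC as in NTM embryos, and so was Rps2, at 29.8, 22.4 and 19.4 RPKM. Ripply3 was low in NTC embryos among the raised genes, at 0.129, 1.19 and 2.51 RPKM in NTC embryos, against 10.5 RPKM or more in NTM embryos.

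The 2-cell stage gave separate libraries of the same embryo types, 3 in vivo and 3 NTM. There 16 of 11345 genes (0.141%) were called between NTM and in vivo embryos. The genes raised at the 1-cell stage mostly lay higher in NTM embryos here too. Of the 38, 31 (81.6%) were above 0 on the log2 scale, against 44.4% of all genes, with a median of 1.54 against -0.15, and Bfsp1, Gm9825 and Vmn2r-ps111 were called again. Gm9825 and Vmn2r-ps111 are a predicted gene and a pseudogene, named after their values were seen. Bfsp1 was at 0.112, 0.0602 and 0 RPKM in vivo and at 287, 248 and 184 RPKM in NTM 2-cell embryos. Pnpla3 was at 0.683, 0 and 0.0130 RPKM in vivo and 5.93, 25.9 and 7.12 RPKM in NTM 2-cell embryos, lower than in NTM 1-cell embryos. Mtfr2 no longer lay apart, with 27.4, 24.2 and 0.105 RPKM in vivo and 24.3, 43.1 and 38.6 RPKM in NTM 2-cell embryos.

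The genes reduced at the 1-cell stage mostly lay higher in NTM embryos here. Of the 92 tested at the 2-cell stage, 31 (33.7%) were below 0 on the log2 scale, against 55.6% of all genes, none was called, and the median was 0.59. This value rested on in vivo 2-cell replicate 3. Without it 60 of 92 (65.2%) were below 0, against 55.0% of all genes, the median was -0.44, and 1 was called. For the raised genes, 31 of 38 were above 0 without this library too. In all, 62 of the 130 genes tested kept their direction, and 91 did without in vivo 2-cell replicate 3. Zbed3 was at 1999, 2696 and 309.9 RPKM in vivo and 4788, 2822 and 2901 RPKM in NTM 2-cell embryos.

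In vivo 2-cell replicate 3 had the low levels of the NTM 1-cell embryos for the reduced genes. The median log2(RPKM + 1) of the 94 genes was 1.85 in it and 1.53, 1.81 and 1.58 in the NTM 1-cell libraries. In the other 14 of the 18 libraries of 1- and 2-cell embryos it was 4.36 to 5.67. It was 0.38 to 3.06 in the 36 libraries from the 4-cell stage on. This library lay below both other in vivo 2-cell libraries for 88 of the 94 reduced genes (93.6%), for 6 of the 38 raised genes (15.8%) and for 38.1% of all genes tested. Over the in vivo 2-cell libraries, Ube2s was at 225, 219 and 2.201 RPKM, Phf1 at 279, 178 and 0.598 RPKM, Cfl1 at 812, 817 and 5.06 RPKM and CT010467.1 at 6056, 6629.8 and 132 RPKM. Genes of the top GC class took 1.72% of its reads, less than in the NTM 1-cell libraries. What set this in vivo library apart was not tested. The in vivo group of the 1-cell stage held no such library.

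The median log2(RPKM + 1) of the raised genes was 3.35 to 4.38 in all 12 NTC and NTM libraries of 1- and 2-cell embryos. It was 0.14 to 0.19 in the in vivo 1-cell and 0.97 to 1.61 in the in vivo 2-cell libraries. The NTM and in vivo 1-cell libraries chose these genes, so their levels there are a description fixed by that choice, and the NTC and 2-cell libraries were not used.

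**Figure D5:**
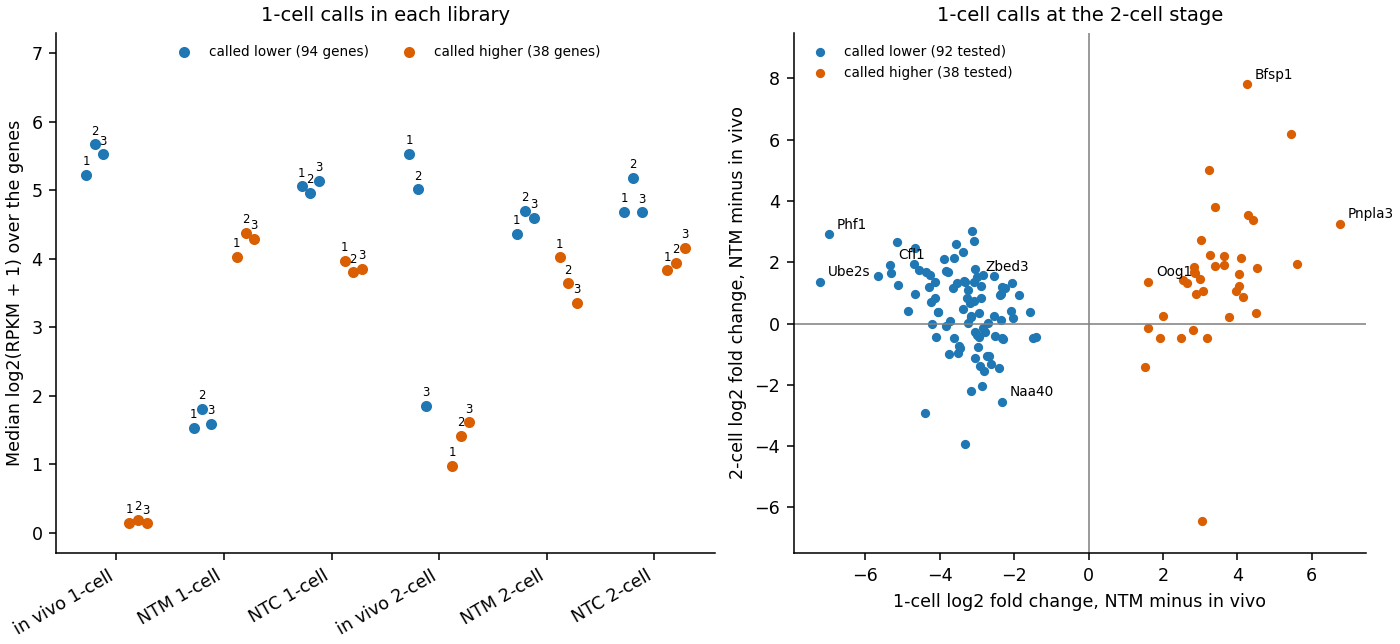
Left, the median log2(RPKM + 1) of the 94 lower and the 38 higher genes in each of the 18 libraries of 1- and 2-cell in vivo, NTC and NTM embryos. Right, the log2 fold change of NTM against in vivo at the 1-cell stage (x axis) and the 2-cell stage (y axis) for each called gene. The NTM 1-cell libraries and in vivo 2-cell replicate 3 (1.85) lie below 2 for the lower genes, where the other libraries lie at 4.36 to 5.67.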

How the data were processed

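The authors collected single embryos and reverse transcribed their RNA. They added a poly(A) tail to the first strand of cDNA, amplified the cDNA and sequenced it. They mapped the reads with TopHat, counted them per gene with HTSeq and deposited RPKM values, reads relative to the length of the exons and to the total on genes. The submitters' processing notes name Bowtie 0.12.2 and mm8. The deposited table has no coordinates. Symbols, positions and GC content were taken from GENCODE M21 (GRCm38), which held 27056 of the 27238 genes. Reads per library were estimated from the steps between low RPKM values, and 75.8% of the values under 200 reads came out whole within 0.02 in the least complete of the 6 libraries and 77.3% in the most complete. Counts were not used in a test.

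Groups were compared with limma 3.58.1 (lmFit, eBayes with a trend) in R 4.3.3 on log2(RPKM + 1), after genes whose RPKM averaged under 0.5 over the libraries of a comparison had been dropped. Calls needed a Benjamini-Hochberg adjusted p under 0.05 together with a difference of 1 or more on the log2 scale. SE is the moderated standard error of limma. The fits were tested on simulated data. Library measures were compared by exact two-sided permutation tests. Python 3.11.15 with numpy 2.4.6, pandas 2.3.3, scipy 1.17.1 and matplotlib 3.10.9 was used for the rest.

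The comparison, its gene lists and its rules were chosen with earlier results of these data known. The named genes are the 10 called genes with the largest rise and the 10 with the largest fall whose groups do not overlap, without predicted genes, clone names, RNA genes and pseudogenes. To these come up to 4 called members of each of 36 gene lists (the 2 most abundant where none was called), the genes of the lists for sex, egg strain and the study's own genes, and the 5 most abundant called genes of each group. A gene of this rule and 1 sequence are not reported here. Lists given by a pattern of names were limited to protein-coding genes, and older symbols were matched by hand. Alternatives were other pseudocounts, filters, scaling, groups in the fit, a replicate block, sample weights and leaving out single libraries. GC adjustment, the term for the difference between stages and leaving out 2-cell libraries were added once the data had been examined. Embryos of the 4-cell stage and later entered only the fit over all 20 groups and the medians per library.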

Additional observations from a re-analysis of the deposited data

Results flagged for a closer look

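The difference between NTM and in vivo embryos was set against the same difference at the 2-cell stage, with a term for stage and embryo type in 1 limma fit over 12 libraries. Of 11278 genes tested, 23 (0.204%) passed an adjusted p under 0.05, and 8 of them were among the genes called at the 1-cell stage (1.28% of those tested there). The 6 libraries of the 1-cell stage entered both fits, so this overlap is no finding. The difference at the 1-cell stage minus that at the 2-cell stage is given first for the 8 genes called in both fits, on the log2 scale. It was -9.90 for Phf1, -8.60 for Ube2s, -6.30 for the kinase Mark2 and -6.05 for the ubiquitin hydrolase Uchl1. For the small GTPase Rac3 it was -5.85, for the chromatin protein Vps72 -5.48, for Zbed3 -4.50 and for Gm5039 9.51, each with an adjusted p of 0.0472 by limma. Among the rest of the 23 only Hmga1b was below 0 (-5.17). The others were above 0, from 2.64 for Obox1 to 6.37 for Zfp960. Gm5039, a predicted gene named after its values were seen, was listed at 0 in the 3 in vivo and at 4.22, 14.2 and 6.41 RPKM in the NTM libraries of the 1-cell stage, and at 8.89, 184 and 791 RPKM in vivo and 0, 1.17 and 0 RPKM in NTM embryos at the 2-cell stage. Phf1 was at 361, 281 and 331 RPKM and Ube2s at 183, 124 and 118 RPKM in NTM 2-cell embryos, and both were at or under 2.201 RPKM in in vivo 2-cell replicate 3. Mark2 in NTM embryos was at 1.503, 2.18 and 0.946 RPKM at the 1-cell and 44.2, 33.8 and 38.8 RPKM at the 2-cell stage. In the in vivo 2-cell libraries Mark2 was at 40.6, 16.9 and 1.23 RPKM, lowest in replicate 3. The count of 23 depended on single libraries. It was 0 by limma without any 1 of the 6 libraries of the 1-cell stage or without in vivo 2-cell replicate 2, where 1089 to 1462 genes had an unadjusted p under 0.05. It was 78 without in vivo 2-cell replicate 1, 96 without replicate 3, and 24, 14 and 2 without NTM 2-cell replicates 1, 2 and 3.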

How the results depend on the processing

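The number of genes called, 132, moved with several choices. With no filter on low values 46 genes were called (11 higher, 35 lower), with 1 fit over all 20 groups 719 (327 and 392), with 1 fit over the 3 groups of 1-cell embryos 494 (218 and 276), and with weights for the quality of each library 1072 (395 and 677). A pseudocount of 0.1 gave 112 (34 and 78), a stricter filter 157 (51 and 106), median-ratio scaling 166 (40 and 126), leaving out mitochondrial genes 143 (39 and 104), GC adjustment, added after the data had been seen, 173 (49 and 124), and no fold change threshold 132. The numbers of the replicates did not pair the embryos: deviations of embryos with the same number correlated at 0.05, -0.01 and -0.04, and a replicate block gave 69 genes (20 and 49), of which 64 were among the 132. Leaving out 1 library moved the count from 16 to 853 (higher 2 to 280, lower 14 to 573). It was 853 without in vivo replicate 1, 34 without in vivo replicate 2, 29 without in vivo replicate 3 and 16, 33 and 20 without NTM replicates 1, 2 and 3, and 16 genes were called each time: Ube2s, Phf1, Rln3, Hmga1, Eif4a1, Pofut2, Mark2, Uchl1, Meis2, Atxn2l, CT010467.1, Gpx3, Mlf2, Zbed3, Mtfr2 and Pnpla3. The 62 genes with the same direction at the 2-cell stage became 20 with no filter, 33 with the replicate block and 4 to 411 without single 1-cell libraries, and 50 to 91 without single 2-cell libraries. With fewer libraries the fit has fewer degrees of freedom, and the cause of the other changes was not tested. The median of all genes moved from 0.18 to 0.03 with median-ratio scaling, 0.32 with a pseudocount of 0.1, 0.04 with no filter and 0.02 without in vivo replicate 1, so values near 0 have no settled direction. The 39 called genes named by the rule kept their sign in all 623 values computed. Of these, 22 lost their call with no filter, 13 with the replicate block, 8 with a pseudocount of 0.1, 22, 26, 30, 25 and 28 without in vivo replicates 2 and 3 and NTM replicates 1, 2 and 3, and at most 6 under any other alternative. A change of sign was seen in 23 of 698 values for named genes that were not called, and 15 became calls (Dcn, Mrpl16, Mrpl40, Dpy30, Ube3a and Btbd9 without in vivo replicate 1 and, with Glo1, under library weights, and Dnah8 and Mrpl16 in the fits over more groups). With library weights the changes of sign were Kitl (-0.672), Btg4 (0.249), Sf3b1 (-0.0921), Zfp57 (-0.814) and Hsp90aa1 (-0.833), with median-ratio scaling Neil3 (-0.0372) and Klf10 (-0.0486), and with GC adjustment Kitl (-0.0715) and Klf10 (-0.0903). Without single libraries the log2 fold change ranged from -0.312 to 0.0787 for Cyp19a1, -0.808 to 0.593 for Kitl, -0.845 to 0.332 for Btg4, -0.466 to 0.114 for Cnot6l, -0.183 to 1.07 for Sf3b1, -0.0849 to 0.859 for Pttg1, -0.912 to 0.986 for Zfp57, -0.00987 to 1.46 for Uhrf1, -0.115 to 0.626 for Klf10 and -0.895 to 1.08 for Hsp90aa1. Of 574 medians of gene lists, 549 moved by less than 1 SD between replicates.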
